A study of Rattus norvegicus with 15 samples.

Results

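Islets of Lewis rats with severe hyperglycemia after pancreatectomy were compared with islets of rats that had the same operation and lower blood glucose. The members are 10 libraries of the 15 in the series, chosen by the average blood glucose written in their titles: 3 Px rats above 300 (severe Px) and 7 Px rats below 300 (lower-glucose Px). Px stands for partial pancreatectomy, here removal of 90% of the pancreas, and the series also holds 5 Sham rats, which had the operation without the removal. Polyadenylated RNA of isolated islets of Langerhans was sequenced 10 weeks after surgery. All groups are Lewis rats whose description carries an age of 4-5 weeks without the time point it refers to, and the glucose values carry no unit. Every title also carries the label Inc_YES, whose meaning is not stated. The severe rats are number 13 at 416, number 15 at 464 and number 19 at 421. The lower-glucose rats lay between 104 and 211, and the Sham rats, which enter only as background values, between 88 and 96. The 10 Px rats share the removed pancreas and the time after surgery, so that Sham, and not lower-glucose Px, is the group with an intact pancreas. Each library is taken as 1 rat, since each rat number is used once. How glucose was averaged is not stated.

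Islets contain beta cells, which make insulin, alpha cells, which make glucagon, delta cells, which make somatostatin, and PP cells, which make pancreatic polypeptide. After removal of most of the pancreas the remaining beta cells must control blood glucose under a larger demand, and raised glucose is itself known to change beta cell expression. High glucose acts on many metabolic genes through the transcription factor ChREBP, which binds E-box sequences, while hormone genes such as the somatostatin gene are classic targets of the cyclic AMP response element (CRE) and its binding protein.

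A CRE was looked for near the genes of the delta and PP cell list that rose in severe Px, because the 2 with the largest rise, Sst and Cartpt, encode secreted peptides. The letters searched were TGACGTCA, which read the same on both strands, in windows from 250 bases before to 50 bases after each gene's start in RefSeq (build GRCr8). They occurred in 612 of 33469 windows of 300 bases (1.829%) and in 2 of the 6 genes of the list that rose. The background counts windows, while a gene counts if any of its windows matches. The somatostatin gene was a known CRE target before the search, so its match is no find against that share. The capitals mark the CRE.
Sst: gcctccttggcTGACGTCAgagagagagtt
Cartpt: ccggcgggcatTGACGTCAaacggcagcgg
The Sst stretch is chr11:90461537-90461566 on the plus strand, with the first base of the CRE 3 bases after the RefSeq start. The Cartpt stretch is chr2:32991359-32991388 on the minus strand, with the first base of the CRE 142 bases before the start. The E-box CACGTG, also the same on both strands, was searched in the carbohydrate-responsive genes described below and occurred in 2148 windows (6.418%). It was found in 1 of 3 risen genes of that list with a window, Pfkfb3, and in 3 of 13 that did not pass the test. The capitals mark the E-box.
Pfkfb3: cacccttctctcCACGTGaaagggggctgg
That stretch is chr17:71944879-71944908 on the plus strand, and the E-box begins 42 bases before the start. A match gives the position of these letters and does not show that a factor binds there.

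Library totals were 22.3 to 33.4 M counts in severe Px, 19.1 to 31.6 M in lower-glucose Px and 12.2 to 18.4 M in Sham. The libraries held exocrine RNA: genes of the acinar cell list, which make digestive enzymes, took 39.3% ± 5.18 (SD, n = 3) of the counts in severe Px, 34.0% ± 11.9 (SD, n = 7) in lower-glucose Px and 5.79% ± 6.11 (SD, n = 5) in Sham. The 2 Px groups did not differ beyond their spread (exact two-sided permutation test over 120 splits, p = 0.5; the smallest p this design allows is 0.0166667). The 8 islet hormone genes took 4.55% ± 1.09 in severe Px (SD, n = 3), 7.08% ± 2.04 in lower-glucose Px (SD, n = 7) and 17.5% ± 5.04 in Sham (SD, n = 5), and the Px groups did not pass the same exact test (p = 0.1). The first principal component of the 10 Px libraries held 32.7% of the variance, and the severe libraries lay at 32.2 to 54.3 on it against -54.4 to 11.5 for the others. Among the others, rats 14 and 16 lay nearest, at 2.69 and 11.5, and rats 2, 4, 8, 10 and 11 at -54.4 to -11.2. Rats 14 and 16 also had the highest acinar shares (47.4% and 53.0%). They and the severe rats carry the numbers from 13 upward, so rat number and glucose group cannot be fully told apart. All 6 defining islet markers (Ins1, Ins2, Gcg, Sst, Ppy and Chga) were present in every Px library. In bulk RNA, fewer cells of a type and less RNA per cell cannot be told apart, which holds for every result that follows.

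Of 15560 genes tested, 380 were higher (2.44%) and 126 lower (0.81%) in severe Px at an adjusted p under 0.05, 506 in all (3.25%). The test is edgeR's quasi-likelihood test with Benjamini-Hochberg adjustment over all genes tested, and its result is called the edgeR adjusted p from here on. Counts of genes that were higher or lower, or that passed, are those of edgeR unless another tool is named. The shares above, of all genes tested, are the background for each edgeR count of list members below. Fold changes are log2, severe Px minus lower-glucose Px, and CPM (the usual per-library scaling of counts) use the TMM-scaled library sizes. TMM factors were 0.624 to 0.972 in severe Px, 0.775 and 0.712 in lower-glucose rats 14 and 16, and 1.12 to 1.43 in rats 2, 4, 8, 10 and 11. The median change over all genes was -0.01. In 891 genes (5.73%) every severe library lay above every lower-glucose library, and in 633 genes (4.07%) every severe library lay below. The balance of directions depended on the scaling: with library totals alone 35 genes were higher and 53 lower, with all genes shifted by -0.53, and when libraries were scaled to the summed counts of 8 endocrine granule genes 88 were higher and 98 lower, with a shift of -0.26. Each severe library carried weight, since 107 genes passed without rat 13 (101 higher, 6 lower), 180 without rat 15 (152 and 28) and 156 without rat 19 (136 and 20). Without lower-glucose rat 14, which had the lowest glucose in Px, 801 genes passed (490 and 311). Fewer passed without lower-glucose rat 2 (256), rat 4 (300) or rat 10 (292).

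The fibroblast, stellate and matrix genes also separated the groups, with a summed level of 2626 to 3979 CPM in severe Px, 5025 to 10086 CPM in lower-glucose Px and 611 to 1082 CPM in Sham. With the mean log2 level of that list as a covariate, edgeR called 0 of 15925 genes, with 1131 at an unadjusted p under 0.05; no other tool was run with it. That mean lay at 5.79 to 6.43 in the severe libraries and at 6.57 to 7.50 in the others, so that the score and the group cannot be told apart. Adjusted for the acinar score, 146 genes were higher and 24 lower.

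Of 12 tested marker genes of delta and PP cells, 6 rose in severe Px, Sst and Cartpt the most, and none fell; all 12 had a positive fold change, and the list's median was 0.82 against -0.01 over all genes (the share of all genes called higher was 2.44%). The median stayed positive with library totals alone (0.33) and with endocrine scaling (0.56), where Sst and Cartpt still passed. Leaving out any 1 of the severe libraries left 2 of the 6 calls, those of Sst and Cartpt.

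Sst encodes somatostatin, the delta cell hormone that restrains insulin and glucagon release. It measured 768 CPM in rat 13, 856 CPM in rat 15 and 669 CPM in rat 19, against a lowest, median and highest value of 122, 209 and 356 CPM in lower-glucose Px. The Sham libraries ranged from 486 to 901 CPM. The severe libraries were therefore all above the other Px libraries and within the range of Sham. The rise was 1.90 (SE 0.25, 95% interval 1.35 to 2.45, edgeR adjusted p = 0.00337), and passed without any single library. Against the lower-glucose rats at 104 to 132 alone, where rat 14 had the highest value of the group, it was 1.704 and did not pass (edgeR adjusted p = 0.0816). Counted within endocrine RNA, the ratio of Sst to Chga counts (chromogranin A, a protein of all islet endocrine granules) was 1.351 to 1.597 in severe Px, 0.3675 to 0.8646 in lower-glucose Px and 0.9798 to 1.156 in Sham, a ratio chosen after its values were seen and given without a test.

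Cartpt, the gene of the CART peptide of islets and neurons, measured 229, 164 and 301 CPM in rats 13, 15 and 19. Lower-glucose Px gave 16.2, 43.1 and 58.4 CPM as lowest, median and highest, and Sham 4.93 to 10.5 CPM. Here severe Px stood above both other groups, with a rise of 2.54 over lower-glucose Px (SE 0.32, edgeR adjusted p = 0.00275). Unlike Sst, which was lower in lower-glucose Px than in every Sham library, Cartpt was higher in all lower-glucose libraries than in Sham.

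The other genes of the list that rose did so by about 1 on the log2 scale. Casr, the calcium-sensing receptor, measured 13.8, 11.05 and 11.5 CPM in rats 13, 15 and 19, 4.17 to 8.35 CPM in lower-glucose Px and 17.7 to 28.4 CPM in Sham (rise 1.08, SE 0.21, edgeR adjusted p = 0.0202). The transcription factor gene Etv1 rose by 0.95 (SE 0.20, edgeR adjusted p = 0.0259), the peptide YY gene Pyy by 0.95 (SE 0.20, edgeR adjusted p = 0.0282) and the retinol-binding protein gene Rbp4 by 0.88 (SE 0.17, edgeR adjusted p = 0.0199). In each of these 4 genes the severe libraries lay above all lower-glucose libraries. Their calls were lost without rat 13, rat 15 or rat 19, with edgeR adjusted p between 0.0505 and 0.151, those of Etv1 and Pyy also without lower-glucose rat 2, Etv1 without rat 4 and Pyy without rat 10. The delta cell transcription factor gene Hhex measured 8.19 to 10.5 CPM in severe and 5.11 to 9.52 CPM in lower-glucose Px, a change of 0.16 (95% interval -0.24 to 0.56), which did not pass.

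**Figure D1:**
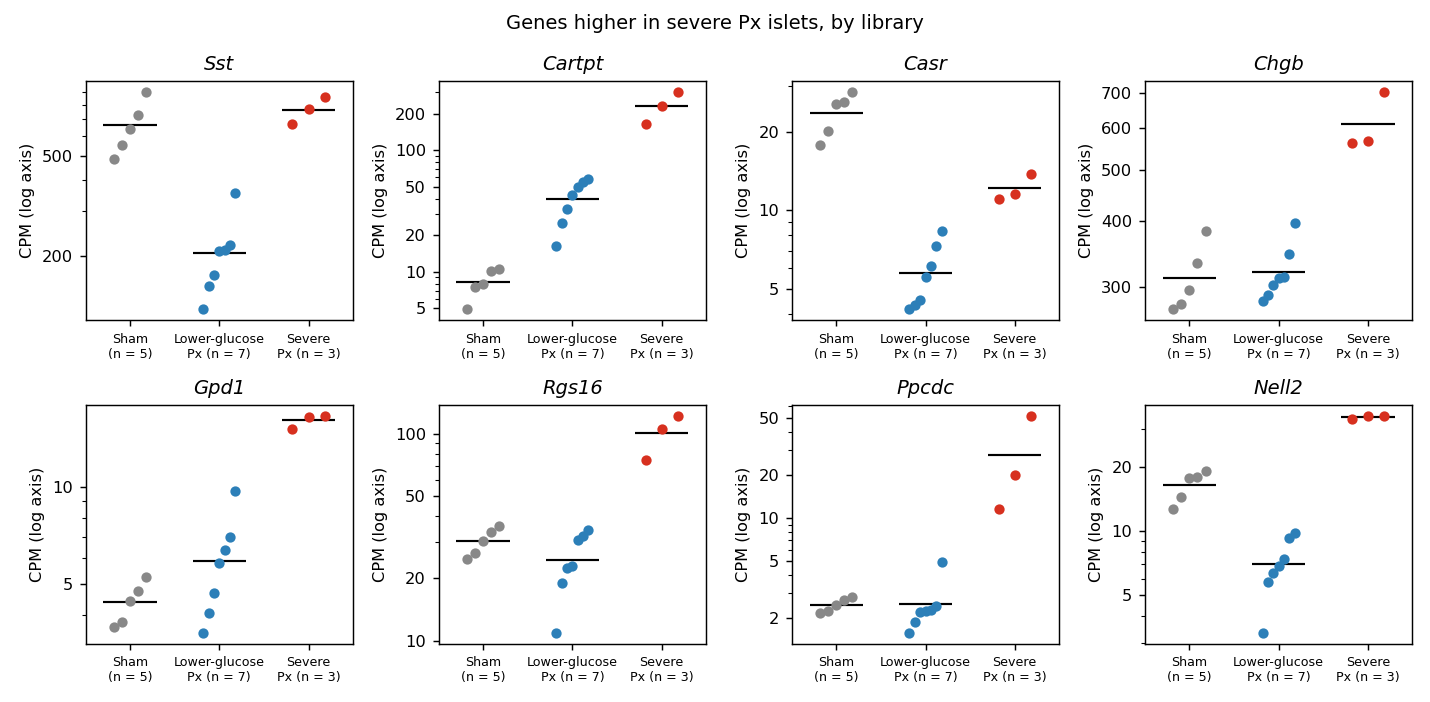
CPM of 8 genes in each library on a log axis, with points for libraries and lines for group means (5 Sham, 7 lower-glucose Px, 3 severe Px). In all 8 panels the severe libraries lie above every lower-glucose library, while for Sst they overlap Sham (486 to 901 CPM) and for Casr they lie below it (17.7 to 28.4 CPM).

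Of 8 hormone genes tested, edgeR called 2 higher (Sst and Pyy), against 2.44% of all genes, and none lower. DESeq2 called 3 higher and 1 lower. The insulin genes did not pass with edgeR. Ins2 measured 7420, 5564 and 5781 CPM in rats 13, 15 and 19, lower-glucose Px gave 5052, 11795 and 14280 CPM as lowest, median and highest, and Sham ranged from 12082 to 31960 CPM. The severe values lay near the low end of the lower-glucose range, where only rat 11, with the highest glucose of that group, was below them (change -0.80, 95% interval -1.496 to -0.11, edgeR adjusted p = 0.169; DESeq2 adjusted p = 0.0257). Ins1 measured 26292 to 30361 CPM in severe and 18736 to 45838 CPM in lower-glucose Px (-0.36, 95% interval -1.12 to 0.39, edgeR adjusted p = 0.548). Both insulin genes are near-identical copies whose reads can be split between them, so neither value is certain.

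Glucagon, pancreatic polypeptide and amylin had positive changes that did not pass with edgeR. Gcg, the glucagon gene, measured 10529, 8251 and 9583 CPM in rats 13, 15 and 19 and 3060 to 10045 CPM in lower-glucose Px (0.74, edgeR adjusted p = 0.193). Ppy, the pancreatic polypeptide gene, measured 1110.5 to 1650.1 CPM in severe and 537 to 1225 CPM in lower-glucose Px (0.76, edgeR adjusted p = 0.0825; DESeq2 adjusted p = 0.0153). Iapp, the gene of the amylin peptide released with insulin, changed by 0.44 (95% interval -0.22 to 1.10, edgeR adjusted p = 0.399). The groups overlapped for all 3 genes. In the alpha cell list, 11 of 13 genes had positive values with a median of 0.40, or -0.12 with library totals alone. DESeq2 and voom with sample weights each called 1 gene of the list higher and 1 lower, and voom called 1 higher and 0 lower. With edgeR 1 gene passed, Fap, and it fell (-1.21, SE 0.29, edgeR adjusted p = 0.0480). Fap, fibroblast activation protein, is also made by activated fibroblasts, and its call was lost without any 1 of the severe rats and of lower-glucose rats 2, 4, 8 and 10.

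Secretory granule genes were split. Of 18 genes for prohormone processing and granule proteins, edgeR called 4 higher (Chgb, Scg5, Scg3 and Scgn), against 2.44% of all genes. None was lower, and the median was 0.03. With library totals alone 0 were higher and the median was -0.45, and with endocrine scaling 3 were higher and 1 lower, with a median of -0.22. Endocrine scaling rests on granule genes, among them Chgb, Scg3 and Scg5 of this list, so it is not a separate check here. DESeq2 called 6 higher and 1 lower, and voom with sample weights 7 higher and 1 lower. Chgb, chromogranin B, measured 561, 567 and 702 CPM in rats 13, 15 and 19, against 283, 312 and 397 CPM as lowest, median and highest in lower-glucose Px and 273 to 383 CPM in Sham. The severe libraries exceeded all 12 others. The rise was 0.93 (SE 0.13, edgeR adjusted p = 0.00365) and passed without any single library, though not with library totals alone (0.43, edgeR adjusted p = 0.274).

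Scg5, the chaperone of a prohormone convertase, rose by 0.92 (SE 0.17, edgeR adjusted p = 0.0158), from 274 to 494 CPM in lower-glucose Px to 809, 638 and 898 CPM in rats 13, 15 and 19. Scg3, a granin that helps sort cargo into granules, rose by 0.80 (SE 0.16, edgeR adjusted p = 0.0209). Scgn, the calcium-binding secretagogin, rose by 0.49 (SE 0.12, edgeR adjusted p = 0.0439), with 286 to 384 CPM against 191 to 250 CPM. For all 3 the groups did not overlap, and all 3 calls were lost without rat 13 or rat 19. The calls of Scg3 and Scgn were also lost without rat 15 and that of Scgn without lower-glucose rats 2, 4, 10, 14 or 16, with edgeR adjusted p between 0.0520 and 0.191 over these losses. The convertase genes did not pass: Pcsk1 changed by -0.15 and Pcsk2 by -0.02. Chga changed by 0.47 (95% interval 0.16 to 0.79, edgeR adjusted p = 0.0970).

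Beta cell identity genes did not pass the test in either direction. Among 19 beta cell transcription factor genes edgeR called 0 (median -0.11), with 4 at an unadjusted p under 0.05, and DESeq2 and voom called 0. Voom with sample weights called 2 higher and 1 lower. Among 34 genes of glucose sensing and insulin secretion edgeR called 0 (median -0.13), with 11 at an unadjusted p under 0.05. There DESeq2 called 1 higher and 2 lower, voom 0, and voom with sample weights 1 higher and 3 lower. With library totals alone these medians were -0.62 and -0.64, where the median of all genes was -0.53.

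Nkx6-1, a factor that maintains beta cell identity, measured 58.7, 72.8 and 51.4 CPM in rats 13, 15 and 19, against 50.9, 64.8 and 83.0 CPM as lowest, median and highest in lower-glucose Px and 181 to 232 CPM in Sham. The 2 Px groups overlapped and both lay below Sham. The change of -0.11 had a 95% interval of -0.43 to 0.22 (edgeR adjusted p = 0.683). Pdx1, the master regulator of the beta cell program, changed by 0.16 (95% interval -0.21 to 0.52), Neurod1 by -0.00 and Mafa, an activator of insulin transcription, by 0.48 (95% interval -0.22 to 1.19). None of the 3 passed (edgeR adjusted p = 0.595, 0.988 and 0.383).

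Glp1r, the receptor of the incretin GLP-1, came nearest to the threshold in these lists. It measured 46.9, 48.8 and 49.0 CPM in rats 13, 15 and 19, and 49.1, 71.4 and 85.0 CPM as lowest, median and highest in lower-glucose Px, with 185 to 220 CPM in Sham. All severe libraries lay below the lower-glucose ones, the nearest pair by a small margin. The change was -0.54 (95% interval -0.84 to -0.23, edgeR adjusted p = 0.0625); DESeq2 gave an adjusted p of 0.0109, and without lower-glucose rat 8 the edgeR adjusted p was 0.00887. It also passed with endocrine scaling (-0.77, edgeR adjusted p = 0.0360), a scaling that the risen Chgb, Scg3 and Scg5 enter. Slc2a2, the glucose transporter GLUT2, measured 466 to 624 CPM in severe and 527 to 893 CPM in lower-glucose Px (-0.46, edgeR adjusted p = 0.145), and Ucn3, a peptide of mature beta cells, 44.4 to 66.9 CPM against 49.9 to 89.1 CPM (-0.48, edgeR adjusted p = 0.146).

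Genes that mature beta cells normally keep silent, and genes of progenitor or dedifferentiated cells, were also near no change as lists. Of 24 beta cell disallowed genes edgeR called 0 (median -0.08), with 6 at an unadjusted p under 0.05, while DESeq2 called 1 higher and 1 lower, voom 0, and voom with sample weights 3 higher and 1 lower. Ldha, lactate dehydrogenase, changed by -0.64 (edgeR adjusted p = 0.359), Hk1, a hexokinase of high glucose affinity, by -0.09 and Slc16a1, a lactate and pyruvate transporter, by -0.06. Of 14 progenitor and dedifferentiation genes tested edgeR called none higher and 1 lower, DESeq2 1 higher and 2 lower, voom 1 lower, and voom with sample weights 2 higher and 2 lower. The edgeR call was Tnfrsf11b, the decoy receptor osteoprotegerin, at 16.7 to 21.9 CPM in severe Px, 27.5 to 51.8 CPM in lower-glucose Px and 74.3 to 94.9 CPM in Sham (-0.83, SE 0.19, edgeR adjusted p = 0.0403). Its call was lost without any 1 of the severe rats or lower-glucose rats 2, 4 or 10. Aldh1a3, a retinaldehyde dehydrogenase used as a marker of dedifferentiated beta cells, measured 28.8, 35.2 and 46.4 CPM in rats 13, 15 and 19, 12.4, 19.6 and 28.9 CPM as lowest, median and highest in lower-glucose Px and 1.52 to 4.16 CPM in Sham. The Px groups touched at 1 library each, and the change of 0.85 (95% interval 0.36 to 1.35) did not pass (edgeR adjusted p = 0.0651; DESeq2 adjusted p = 0.0149). Without lower-glucose rat 4 it passed (0.96, edgeR adjusted p = 0.0486).

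**Figure D2:**
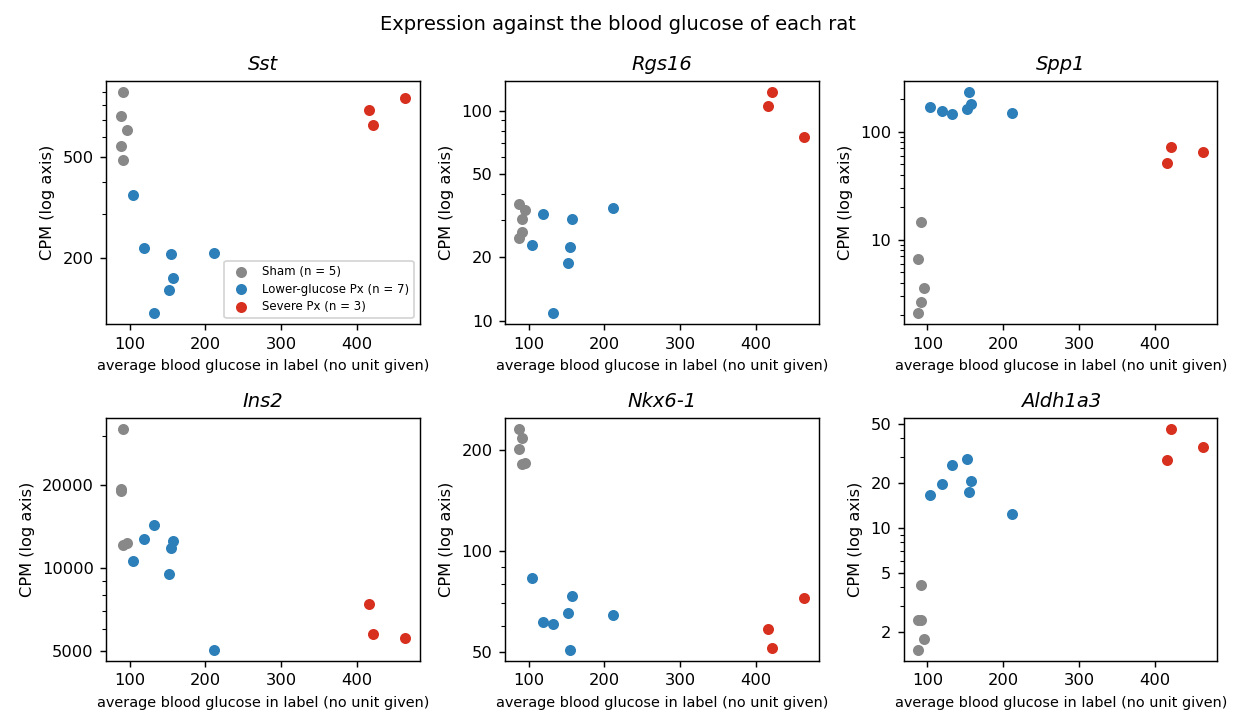
CPM on a log axis against the average blood glucose in each rat's label, for the 15 libraries and 6 genes. The severe rats (416 to 464) stand apart from the lower-glucose rats for Sst, Rgs16 and Spp1, while Nkx6-1 lies at 51.4 to 72.8 CPM in severe Px within the lower-glucose range of 50.9 to 83.0 CPM.

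Carbohydrate-responsive genes, a list of known targets of glucose, fructose and ChREBP, moved in part. Of 23 tested, 6 were higher, against 2.44% of all genes, among them Rgs16, Pfkfb3, Gpd1, Slc2a5 and Klf10. None was lower, and the median was 0.18. With library totals alone the median was -0.31 and 2 genes were higher, and with endocrine scaling it was -0.05 and 4 were higher. Without rat 13, 3 of the list were higher.

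Rgs16, a brake on G protein signalling that follows glucose in islets, measured 105, 74.9 and 123 CPM in rats 13, 15 and 19, against 10.9, 22.9 and 34.3 CPM as lowest, median and highest in lower-glucose Px. Sham ranged from 24.8 to 35.8 CPM, so that only the severe libraries stood apart (rise 2.04, SE 0.28, edgeR adjusted p = 0.00365). Gpd1, the cytosolic glycerol-3-phosphate dehydrogenase, measured 16.6, 15.1 and 16.4 CPM in rats 13, 15 and 19 and 3.52 to 9.68 CPM in lower-glucose Px, with Sham at 3.66 to 5.26 CPM (rise 1.46, SE 0.25, edgeR adjusted p = 0.0116). Pfkfb3, which makes the allosteric activator of phosphofructokinase, showed a graded order of 1.46 to 2.01 CPM in Sham, 6.81 to 18.7 CPM in lower-glucose Px and 23.6 to 36.3 CPM in severe Px (rise 1.56, SE 0.27, edgeR adjusted p = 0.0127). The calls of Gpd1 and Pfkfb3 were lost without rat 13, and that of Pfkfb3 also without rat 19 (edgeR adjusted p between 0.0629 and 0.0713).

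Slc2a5, the fructose transporter GLUT5, rose by 0.93 (SE 0.14, edgeR adjusted p = 0.00583), from 4.75 to 6.64 CPM in lower-glucose Px to 10.2 to 12.1 CPM in severe Px. Klf10, a glucose-induced repressor, rose by 0.48 (SE 0.11, edgeR adjusted p = 0.0359), a call lost without any 1 severe rat or lower-glucose rat 10. With library totals alone its change was -0.04. Txnip, the thioredoxin-interacting protein known for its strong glucose response in beta cells, measured 500.5, 1002 and 618 CPM in rats 13, 15 and 19 and 209, 488 and 950 CPM as lowest, median and highest in lower-glucose Px, with 56.4 to 138 CPM in Sham. The Px groups overlapped widely and both lay above Sham (0.46, 95% interval -0.48 to 1.40, edgeR adjusted p = 0.539). Arrdc4, another arrestin-fold target of glucose, changed by 0.15 (edgeR adjusted p = 0.764).

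G6pc, the catalytic subunit of glucose-6-phosphatase, is named here after its values were seen. It measured 9.59, 9.96 and 9.46 CPM in rats 13, 15 and 19, 0.538, 0.857 and 2.13 CPM as lowest, median and highest in lower-glucose Px and 0.0904 to 0.499 CPM in Sham. The 3 severe libraries were close to each other and above all others, and the rise of 3.16 (SE 0.38, edgeR adjusted p = 0.00179) passed without any single library. It passed under each scaling, and also against the lower-glucose rats at 152 to 211 alone (3.20) and those at 104 to 132 alone (3.11).

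Genes of energy metabolism had small positive changes. Of 21 glycolysis and pyruvate genes 2 were higher and none lower (median 0.19, or -0.31 with library totals alone). The share of all genes called higher was 2.44%. Pkm, pyruvate kinase, rose by 0.60 (SE 0.11, edgeR adjusted p = 0.0177), and Pdhb, a subunit of pyruvate dehydrogenase, by 0.60 (SE 0.12, edgeR adjusted p = 0.0237). Of 20 genes of the citric acid cycle and mitochondrial shuttles 2 were higher (median 0.22, or -0.30 with library totals alone): Sucla2, a succinate-CoA ligase subunit, at 70.3 to 80.9 CPM against 47.4 to 54.3 CPM (0.55, SE 0.08, edgeR adjusted p = 0.00426), and the citrate carrier gene Slc25a1 (0.54, SE 0.13, edgeR adjusted p = 0.0432). Sucla2 passed without any single library. The other 3 calls were lost without rat 13 or rat 19, those of Pdhb and Slc25a1 also without rat 15 or lower-glucose rat 2, and that of Slc25a1 without lower-glucose rats 4, 8, 10 or 11.

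All 27 nuclear respiratory chain genes had positive values (median 0.25), but 1 passed, Cox6c (0.62, SE 0.13, edgeR adjusted p = 0.0282). Its call was lost without any 1 severe rat or lower-glucose rats 2, 4 or 10. The 1 call is 3.70% of the list, near the 3.25% of all genes that passed. All 13 mitochondrially encoded transcripts were positive as well (median 0.34), and edgeR called 0 of them, with 5 at an unadjusted p under 0.05, while DESeq2 called 4 higher, voom 0 and voom with sample weights 1 higher. Both medians followed the scaling: with library totals alone they were -0.22 and -0.14. With endocrine scaling they were -0.00 and 0.09. Of 26 unfolded protein response genes (median 0.15, or -0.35 with library totals alone) edgeR called 0, with 5 at an unadjusted p under 0.05; DESeq2 called 1 higher and 1 lower, voom 0, and voom with sample weights 2 higher and 1 lower. Of 24 genes of the ATF4 and amino acid response (median 0.32, or -0.08 with library totals alone) edgeR called 0, with 3 at an unadjusted p under 0.05; DESeq2 called 1 higher, voom 0 and voom with sample weights 2 higher. Hspa5, the main chaperone of the endoplasmic reticulum, changed by 0.17 (edgeR adjusted p = 0.528), Ddit3 (CHOP) by -0.17 (edgeR adjusted p = 0.621) and Trib3 by 0.24 (edgeR adjusted p = 0.782).

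Lipid synthesis genes rose at single steps. Acaca, acetyl-CoA carboxylase of fatty acid synthesis, measured 44.0, 40.6 and 43.7 CPM in rats 13, 15 and 19, 21.5 to 29.1 CPM in lower-glucose Px and 30.9 to 39.6 CPM in Sham. The severe libraries were above both other groups, with a rise of 0.76 (SE 0.10, edgeR adjusted p = 0.00365) that passed without any single library. Mid1ip1, an activator of that enzyme named after its values were seen, measured 61.5, 59.4 and 56.0 CPM in rats 13, 15 and 19 and 21.7 to 30.7 CPM in lower-glucose Px (rise 1.13, SE 0.10, edgeR adjusted p = 0.000896). Neither passed with library totals alone (edgeR adjusted p = 0.453 and 0.142), and Acaca did not pass with endocrine scaling.

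In the fatty acid synthesis list, 2 of 11 genes were higher and 2 lower (median 0.20, or -0.32 with library totals alone). The shares over all genes were 2.44% and 0.81%. Acacb, the mitochondrial acetyl-CoA carboxylase, rose by 1.52 (SE 0.33, edgeR adjusted p = 0.0325) with overlapping groups, since rat 19 measured 14.3 CPM and the others 36.4 and 46.0 CPM. The desaturase genes Fads1 and Fads2 fell by 0.46 and 0.60 (edgeR adjusted p = 0.0400 and 0.0428), with the severe libraries below all others. These 3 calls were lost without rat 13, rat 15 or lower-glucose rats 2, 4 or 10, and those of the desaturases without rat 19. In cholesterol synthesis 3 of 20 genes were higher and none lower (median 0.32), among them Idi1 (0.79, edgeR adjusted p = 0.0132) and Sqle (0.38, edgeR adjusted p = 0.0272), and in 8 genes the severe libraries lay above all lower-glucose ones (5.73% of all genes). With library totals alone the list's median was -0.20, and without lower-glucose rats 2 or 10 or any 1 severe rat 1 of the list was higher.

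The largest rises outside these lists lay in genes of several kinds. Ppcdc, an enzyme of coenzyme A synthesis, measured 11.6, 51.8 and 19.9 CPM in rats 13, 15 and 19, against 1.58, 2.26 and 4.96 CPM as lowest, median and highest in lower-glucose Px and 2.19 to 2.80 CPM in Sham. It had the largest rise among the named genes, 3.49 (SE 0.40, edgeR adjusted p = 0.00141), and rat 15 was well above the other 2. Nell2, a secreted neural protein, measured 34.9, 34.8 and 33.7 CPM in rats 13, 15 and 19, 3.34 to 9.85 CPM in lower-glucose Px and 12.7 to 19.2 CPM in Sham. Its severe libraries differed little among themselves and the rise was 2.31 (SE 0.23, edgeR adjusted p = 0.00116).

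Adgrf3, an adhesion G protein-coupled receptor, rose by 2.71 (SE 0.41, edgeR adjusted p = 0.00634), from 2.35 to 13.2 CPM to 35.8 to 49.8 CPM, with 0.461 to 1.22 CPM in Sham. Serpina6, which encodes the corticosteroid-binding globulin, rose by 2.65 (SE 0.28, edgeR adjusted p = 0.00116), from 1.72 to 5.71 CPM to 17.0 to 26.3 CPM. Itgb8, the integrin beta 8 subunit that activates latent TGF-beta, rose by 2.25 (SE 0.24, edgeR adjusted p = 0.00116), from 4.61 to 9.80 CPM to 21.7 to 42.2 CPM. For all 3 the groups did not overlap. These 3 genes, Ppcdc and Nell2 passed without any single library, with library totals alone and adjusted for the acinar score. Ppcdc did not pass against the lower-glucose rats at 104 to 132 alone (3.23, edgeR adjusted p = 0.0643).

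Further rises were those of Nov (also called Ccn3, a matricellular protein; 1.71, SE 0.16, edgeR adjusted p = 0.000896), Gpr6 (an orphan receptor; 1.60), Lgals9 (galectin-9; 1.55) and Tdh (threonine dehydrogenase; 1.90), with no overlap between the groups. The call of Tdh was lost without rat 13 or rat 15 (edgeR adjusted p between 0.0864 and 0.0953). Tph1, the enzyme of serotonin synthesis outside the brain that rises in islets in pregnancy, rose by 2.28 (SE 0.34, edgeR adjusted p = 0.00596), at 2.46, 1.69 and 3.19 CPM in rats 13, 15 and 19 against 0.288 to 0.938 CPM. Its raw counts were few, 45 to 69 in severe and 10 to 20 in lower-glucose libraries. In the same list of 15 serotonin, GABA and prolactin genes Gad2, the islet glutamate decarboxylase, fell by 0.78 (SE 0.15, edgeR adjusted p = 0.0198). It measured 53.4 to 69.6 CPM in severe Px, 73.5 to 119 CPM in lower-glucose Px and 334 to 408 CPM in Sham, and its call was lost without rat 13 or rat 19.

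**Figure D3:**
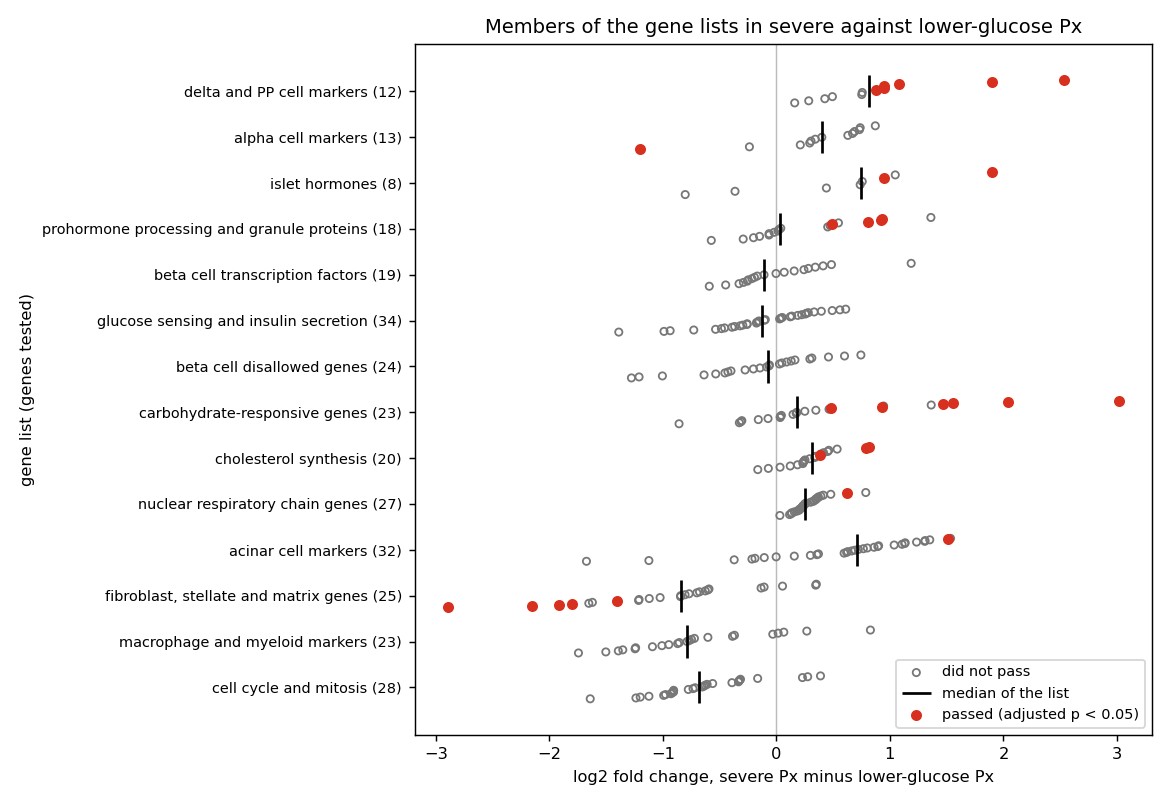
Log2 fold change, severe minus lower-glucose Px, of each tested member of 14 gene lists, with the number tested after each name. Filled red points passed the test, open points did not, and bars are list medians, which run from 0.82 for delta and PP cell markers to -0.84 for fibroblast and matrix genes.

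Collagen and other matrix genes were among the genes that fell. Of 25 fibroblast, stellate and matrix genes 5 were lower (Postn, Col1a1, Col1a2, Col3a1 and Lox), 20 did not pass and none was higher, with a median of -0.84, against 0.81% of all genes called lower, and 10 members lay below all lower-glucose libraries (4.07% of all genes). The median was -1.35 with library totals alone and -1.14 with endocrine scaling. With endocrine scaling 2 of the list were lower, and adjusted for the acinar score 1 was. Against the lower-glucose rats at 104 to 132 alone none of the 5 passed (edgeR adjusted p between 0.113 and 0.191). DESeq2 called 16 of the list lower and voom 7. The number lower was 0 without rat 13 or rat 19, 2 without lower-glucose rat 2 or rat 4 and 3 without rat 10, though 8 were lower without rat 14, 7 without rat 16 and 12 without rat 11.

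Postn, periostin of wound and tumour stroma, measured 11, 57.5 and 29.3 CPM in rats 13, 15 and 19, against 136, 234 and 357 CPM as lowest, median and highest in lower-glucose Px and 0.333 to 30.6 CPM in Sham. Severe Px lay below every lower-glucose library, and the change was -2.89 (SE 0.53, edgeR adjusted p = 0.0158). Col1a1, the main chain of type I collagen, measured 126, 444 and 193 CPM in rats 13, 15 and 19, 601, 871 and 2043 CPM as lowest, median and highest in lower-glucose Px and 12.0 to 66.9 CPM in Sham. The severe libraries lay between the other 2 groups, with a change of -2.16 (SE 0.48, edgeR adjusted p = 0.0325). Col3a1, of type III collagen, measured 352, 744 and 519 CPM against 1183 to 2970 CPM (-1.80, SE 0.37, edgeR adjusted p = 0.0247), with Sham at 39.9 to 204 CPM.

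Tnc, tenascin C, had the largest fall among the named genes, with 0.753, 18.6 and 20.7 CPM in rats 13, 15 and 19 and 57.0, 154 and 300 CPM as lowest, median and highest in lower-glucose Px (-3.56, SE 0.82, edgeR adjusted p = 0.0392). Rat 13 was far below the other 2 severe rats. Of the 15 largest falls named by rule, the others included Col7a1, Col12a1, Col27a1 and Col1a2 (collagens), Cthrc1 (a regulator of collagen deposition), Adam12 and Adamts12 (metalloproteases), and Clmp and Lipo1. Unlike Postn and Col1a1, Col27a1 was high in Sham, at 132 to 916 CPM. It measured 129 to 434 CPM in lower-glucose Px and 84.5 to 120 CPM in severe Px. The call of each of the 15 was lost without rat 13 and without rat 19, with edgeR adjusted p up to 0.199 over the losses of these genes. Without rat 15 or without lower-glucose rat 2, 10 of the 15 were lost, without rat 4 7, without rat 10 6 and without rat 8 1. None of the 15 falls changed sign under any setting.

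Not every stromal gene moved. Acta2, the smooth muscle actin of activated stellate cells and pericytes, measured 335, 228 and 436 CPM in rats 13, 15 and 19 and 127 to 351 CPM in lower-glucose Px (0.35, 95% interval -0.25 to 0.96, edgeR adjusted p = 0.4661). Dcn, the proteoglycan decorin of resting fibroblasts, measured 90.9 to 163 CPM in severe and 62.2 to 171 CPM in lower-glucose Px (-0.11, 95% interval -0.69 to 0.47, edgeR adjusted p = 0.831). Both were above the Sham range in every Px library.

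Spp1, osteopontin, a secreted protein of macrophages, ducts and injured tissue, measured 51.4, 65.1 and 72.2 CPM in rats 13, 15 and 19. Lower-glucose Px gave 146, 164 and 233 CPM as lowest, median and highest, and Sham 2.09 to 14.7 CPM. The 3 groups did not overlap, and the fall of 1.45 on the log2 scale (SE 0.17, edgeR adjusted p = 0.00146) passed without any single library and adjusted for the acinar score. With the 3 groups in 1 fit it did not pass (edgeR adjusted p = 0.0548). Lcn2, the acute-phase lipocalin, measured 30.2, 22.2 and 30.6 CPM in rats 13, 15 and 19 and 36.9 to 126 CPM in lower-glucose Px (-1.66, SE 0.35, edgeR adjusted p = 0.0274), a call lost without any 1 severe rat or lower-glucose rats 2 or 10. Of 22 inflammatory signalling genes 21 had negative values (median -0.81); edgeR and voom each called 1 lower, with edgeR Lcn2, and DESeq2 and voom with sample weights each called 3 lower.

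**Figure D4:**
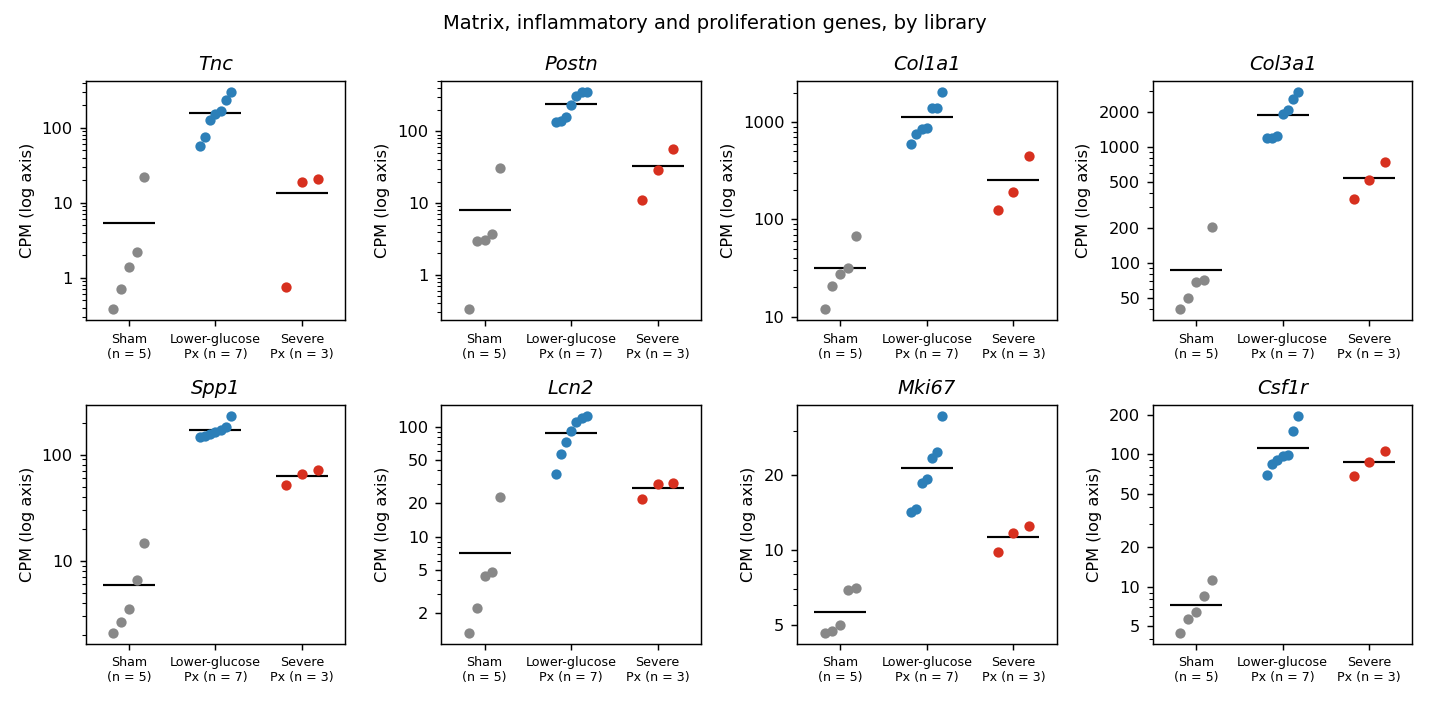
CPM of 8 genes in each library on a log axis, with points for libraries and lines for group means. Tnc, Postn, Col1a1, Col3a1, Spp1 and Lcn2 passed the test, Mki67 (9.79 to 12.4 CPM in severe Px against 14.2 to 34.5 CPM) did not pass, and Csf1r overlapped between the Px groups.

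Markers of macrophages, lymphocytes and dividing cells had mostly negative values as lists, without edgeR calls. Of 23 macrophage and myeloid genes 19 were negative (median -0.79) and edgeR called 0, with 5 at an unadjusted p under 0.05 (DESeq2 called 1 lower, voom 0 with or without sample weights). Their summed level was 1234 to 2155 CPM in severe Px, 1422 to 7112 CPM in lower-glucose Px and 77.6 to 152 CPM in Sham. The defining genes were unequal: Csf1r, the receptor of the macrophage growth factor, changed by -0.37 (edgeR adjusted p = 0.468) and the complement gene C1qb by 0.07 (edgeR adjusted p = 0.882). All 9 lymphocyte genes tested were negative (median -0.99); edgeR called 0, with 0 at an unadjusted p under 0.05, as did DESeq2 and voom. No listed macrophage, lymphocyte or fibroblast gene that was counted, tested or not, was at 0 in all Px libraries. For the tested genes the filter already fixes this. The part of these cells in the falls was not tested.

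Of 28 cell cycle genes 25 were negative (median -0.68), in 11 the severe libraries lay below all lower-glucose ones (4.07% of all genes), and edgeR called 0, with 19 at an unadjusted p under 0.05. DESeq2 called 11 lower, voom 0 and voom with sample weights 10 lower. Top2a, the topoisomerase of dividing cells, measured 13.3, 17.2 and 14.5 CPM in rats 13, 15 and 19, 18.6, 26.1 and 42.4 CPM as lowest, median and highest in lower-glucose Px and 7.51 to 10.8 CPM in Sham. The severe libraries lay between the other groups (-0.93, 95% interval -1.44 to -0.42, edgeR adjusted p = 0.0544; DESeq2 adjusted p = 0.00362). Mki67, the proliferation marker Ki-67, changed by -0.92 (edgeR adjusted p = 0.0771; DESeq2 adjusted p = 0.00982). Which cells divided cannot be read from bulk RNA. Both passed with edgeR without lower-glucose rat 14 or rat 16, and Top2a without rat 8 (edgeR adjusted p between 0.0269 and 0.0466).

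Of 32 acinar genes 25 were positive with a median of 0.71, or 0.34 with library totals alone and 0.52 with endocrine scaling. DESeq2 called 2 higher, voom 0 and voom with sample weights 8. The edgeR share of the list that passed was 3.125%, near the 3.25% of all genes. With edgeR 1 passed, Try10, a trypsinogen, at 2096, 2018 and 1465 CPM in rats 13, 15 and 19 and 243, 647 and 1180 CPM as lowest, median and highest in lower-glucose Px (rise 1.51, SE 0.33, edgeR adjusted p = 0.0325). Its call was lost without any 1 severe rat or lower-glucose rats 4 or 10, and trypsinogen copies can share reads. Prss2, another trypsinogen, changed by 1.53 with overlapping groups (edgeR adjusted p = 0.144).

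Amylase went the other way within the exocrine genes. Amy2a3, a pancreatic amylase gene singled out after its values were seen, made up 1.847%, 1.571% and 6.181% of the acinar-list counts in rats 13, 15 and 19, against 9.773% to 16.33% in lower-glucose Px and 17.58% to 21.52% in Sham. The 3 groups did not overlap in this share, for which no test is given, and the 95% Wilson intervals, which cover counting error only, were at most 0.410 percentage points wide. As CPM the gene overlapped between the groups (7981 to 21397 CPM in severe, 15518 to 121500 CPM in lower-glucose Px, -1.67, SE 0.69, edgeR adjusted p = 0.186), since the acinar share itself ran from 22.4% to 53.0% in lower-glucose Px. Amylase copies can share reads, and the list's other amylase gene, Amy1a, changed by -1.12. Reg3b and Reg3g, secreted lectins of injured acinar cells, were at 113, 123 and 826 CPM and at 0.603, 1.498 and 17.7 CPM in rats 13, 15 and 19. In lower-glucose Px they ranged from 605 to 2216 CPM and from 29.0 to 207 CPM, and rat 19 was the high severe rat for both. Neither passed with edgeR (adjusted p = 0.101 and 0.0640), while both passed with DESeq2 (adjusted p = 0.0217 and 0.00336). DESeq2, voom and voom with sample weights each called 3 of the 4 Reg genes lower. Without rat 19 both passed with edgeR (-3.68, adjusted p = 0.0119, and -6.41, adjusted p = 0.0229), and Reg3g also passed without lower-glucose rat 14 (adjusted p = 0.0471).

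**Figure D5:**
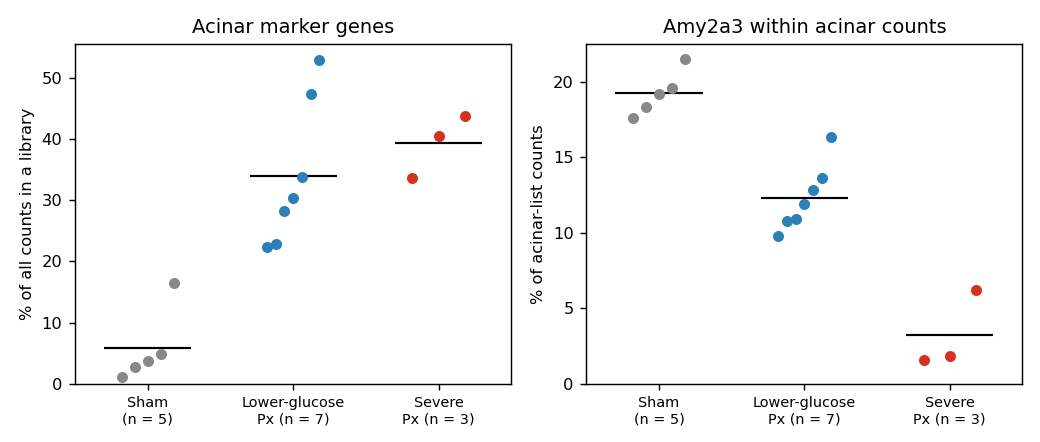
Left, acinar-list counts as a percent of all counts in each library; right, Amy2a3 counts as a percent of the acinar-list counts; points are libraries and lines are group means. The acinar share overlaps between the Px groups (33.6% to 43.8% in severe Px, 22.4% to 53.0% in lower-glucose Px), while the Amy2a3 share does not.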

How the data were processed

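Unnormalized read counts per gene, 28914 genes by 15 libraries, are the deposited values; FastQC, Subread, featureCounts and limma are the tools the submitters' processing notes name, with no versions. The build, annotation and strandedness of that counting step were not stated there. The exon lengths and the authors' deposited comparison of Px with Sham were not used. In the symbol column 25 entries look like dates.

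Low genes were removed by filterByExpr (at least 10 counts, at least 15 in total), and the 10 Px libraries were scaled by TMM. The fit was edgeR 4.0.16 (R 4.3.3), a quasi-likelihood test of severe minus lower-glucose Px, two-sided, with Benjamini-Hochberg adjustment over 15560 genes at 0.05; CPM of all 15 libraries were computed for display. Shares were compared by exact permutation. Px libraries held 19.1 to 33.4 M counts, which makes counting error small beside the spread between rats for genes with many counts. It is not small for genes with few counts, such as Tph1. P-values measure the spread between rats as numbered in the labels, which may be technical in part.

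The 37 gene lists hold 766 symbols, 732 of them in the table. Members and lists were chosen with earlier results of these data known, and no list was tested as a set. The rule for named genes took the 15 largest rises (of 246) and the 15 largest falls (of 85). These came from genes that passed, averaged at least 5 CPM, carried no locus identifier and did not overlap between the groups. The identifier filter missed NEWGENE_621351, a placeholder symbol that is 1 of the 15 falls. From each list the rule also took up to 3 members per direction that passed, by smallest p-value, whatever their level or overlap. A fixed panel was added. Further list members are given for their values, and genes picked after seeing values are marked. Some genes that the rule names are not reported here. The alternatives were other scalings and filters, limma 3.58.1 voom, DESeq2 1.42.0, other groupings, covariates, a minimum change and leaving out each library. The fit was tested on simulated counts.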

Additional observations from a re-analysis of the deposited data

Results flagged for a closer look

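In 25 of the 204 groups of values checked, 1 library lay far from the rest of its group. Its gap to the nearest value was a large part of the group's range. The cut would flag about 1 in 20 if the values were normal and independent. CPM were taken without logs and the same libraries recur, so no excess over chance was shown. In lower-glucose Px, rat 14 was high for Sst (355.8 CPM, next 220.4) and for Mafa (52.4 CPM), and rat 16 was high for Ppcdc (4.96 CPM, next 2.45) and for Trib3 (11.01 CPM). Rat 8 was high for Spp1 (233 CPM, next 181) and Ldha (87.1 CPM) and low for Scgn (191 CPM). Rat 11 was low for Ins1 (18736.5 CPM, next 35880) and high for Etv1 (45.7 CPM, next 29.6). The other flags lay in Sham, which enters no test here. Sham rat 24 was high for the stromal genes Tnc (22.3 CPM), Postn (30.6 CPM), Adam12 (1.45 CPM), Col3a1 (204 CPM) and Lox (10.6 CPM), and for Lcn2 (22.9 CPM), Reg3b (227 CPM) and Reg3g (22.2 CPM). Sham rat 25 was high for the acinar share of counts (16.4%, next 4.92%), Try10 (157 CPM), Amy2a3 (22831 CPM) and Prss2 (1900.2 CPM). Sham rat 27 was high for Gad2 (408 CPM), Slc2a2 (1835 CPM) and Scgn (606 CPM) and low for Ddit3 (4.27 CPM).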

How the results depend on the processing

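No paired analysis was possible because each rat number is used once, so the groups share no replicate numbers. Genes passing in all, higher and lower were 506, 380 and 126. They were 88, 35 and 53 with library totals alone, 186, 88 and 98 with endocrine scaling, 1316, 737 and 579 with DESeq2, 1740, 1129 and 611 with voom and sample weights, and 764, 515 and 249 with the 3 groups in 1 fit. They were 866, 435 and 431 against the lower-glucose rats at 152 to 211, 110, 89 and 21 against those at 104 to 132, 10, 10 and 0 with a minimum log2 fold change of 1, 170, 146 and 24 with the acinar covariate, 510, 309 and 201 with the macrophage covariate, and 0, 0 and 0 with the fibroblast covariate (1131 at an unadjusted p under 0.05). Leaving out 1 library gave 107 to 801 in all, 101 to 490 higher and 6 to 311 lower. RLE scaling, upper-quartile scaling, both other filters and voom stayed within 1.5 times for all 3 counts. Library totals alone shifted the median of all genes by -0.53. With them, 3 of the named genes that passed turned sign, each with a smaller rise than that shift: Sqle (-0.13), Hadhb (-0.13) and Klf10 (-0.036). Signs of the other called genes, and of named genes that did not pass, were not counted. Pdx1 and Hspa5, which did not pass, reached -0.37 and -0.31 as their lowest values over the settings other than leaving out 1 library. The cause of the other differences was not tested. The acinar and hormone shares kept their direction and did not pass under any setting. With a severe library left out, however, the exact test has too few splits to reach 0.05, so those settings could not pass. Without rat 19 the hormone shares of rats 13 and 15 (3.90% and 3.93%) lay below every lower-glucose library (lowest 4.75%).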

Other observations

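Genes of other cell types and pathways from the lists moved singly. Plvap, a protein of fenestrated endothelium, measured 147 to 210 CPM in severe Px and 76.3 to 122 CPM in lower-glucose Px, a rise of 0.74 (SE 0.16, edgeR adjusted p = 0.0282), as 1 of 13 endothelial genes to pass with edgeR (DESeq2 and voom with sample weights each called 3 higher). Slc4a4, the bicarbonate cotransporter of ducts, rose by 0.77 (SE 0.16, edgeR adjusted p = 0.0258), while 12 of 18 duct genes had negative values (median -0.22). Pik3r1, the regulatory subunit of PI3 kinase, fell by 0.57 (SE 0.12, edgeR adjusted p = 0.0252), at 22.8 to 24.8 CPM in severe Px and 27.8 to 41.5 CPM in lower-glucose Px. Btg2, an antiproliferative early response gene, rose by 0.73 (SE 0.17, edgeR adjusted p = 0.0458). Each of these 4 calls was lost without rat 13, 15 or 19, with edgeR adjusted p from 0.0508 to 0.187 over the losses, and also without lower-glucose rat 2. Those of Plvap, Pik3r1 and Btg2 were lost without rat 4 too, those of Plvap and Btg2 without rat 10, and that of Btg2 without rat 8.

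Genes chosen after their values were seen, for their small adjusted p, were Frzb, Shc2 and Enpep. Frzb, a secreted antagonist of Wnt signalling, measured 19.8, 17.4 and 26.1 CPM in rats 13, 15 and 19, 6.89 to 8.69 CPM in lower-glucose Px and 10.9 to 14.97 CPM in Sham (rise 1.42, SE 0.13, edgeR adjusted p = 0.000896). Shc2, an adaptor of receptor tyrosine kinases, rose by 1.53 (SE 0.14, edgeR adjusted p = 0.000896), and Enpep, the aminopeptidase that cleaves angiotensin II, by 1.53 (SE 0.16, edgeR adjusted p = 0.00116). All 3 passed without any single library and did not pass with library totals alone.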
